A study of Mus musculus with 8 samples.

Results

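Polycomb group genes were followed in mouse neural stem cells (NSCs) after ionizing radiation. The 10 genes examined encode 4 core subunits of Polycomb repressive complex PRC2 (Ezh1, Ezh2, Eed and Suz12) and 6 of PRC1 (Bmi1, Cbx2, Cbx7, Cbx8, Rnf2 and Ring1), and a probe set was taken as theirs where the array annotation names 1 of these symbols and no other. This gave 28 probe sets, 13 of PRC2 and 15 of PRC1 genes, among 45101 probe sets and 18193 genes on the array. A probe set is a group of short probes read together as 1 value. RNA came from NSCs that had been derived from mouse ES cells (embryonic stem cells) and were grown with EGF and FGF2, in 4 cultures that were not irradiated (non-irr) and 4 cultures collected on day 7 after 10 Gy of X-rays (irr). The series describes the 4 samples of each group as biological replicates, no genetic change is named for either group, and the time at which the non-irr cultures were collected is not given in the sources used here. Such cells are grown as lines that resemble embryonic radial glia, without the tissue around them.

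Polycomb proteins keep genes silent through marks on histones. PRC2 places methyl groups on lysine 27 of histone H3, through either of the alternative catalytic subunits Ezh2 and Ezh1, while Eed and Suz12 hold the complex together and are needed for its activity. PRC1 attaches ubiquitin to histone H2A through Rnf2 or Ring1 together with a PCGF protein such as Bmi1, and its CBX proteins bind the mark that PRC2 leaves. In neural stem cells Bmi1 and Ezh2 are known for sustaining self-renewal, and Ezh2 is typical of dividing cells whereas Ezh1 is also found in cells that have stopped dividing.

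Promoter sequences were available for 9 of the 10 genes, all but Cbx2, in RefSeq windows that run from 250 bases before to 50 bases after an annotated transcript start (build GRCm38.p6). For Ezh2 and Cbx7 that start lies inside the annotated gene. They were searched on both strands for letters of an E2F site (TTTCCCGC, TTTCGCGC, TTTGCCGC or TTTGGCGC) and of a cell-cycle homology region, CHR (TTTGAA), which are the binding sites of factors that tie transcription to the cell cycle. The E2F letters stand in 2.26% of 32817 windows of all genes and the CHR letters in 17.9%. Among the 9 genes, E2F letters stand in 2, Ezh2 and Suz12, and CHR letters in 3, Eed, Suz12 and Cbx7. The PRC2 promoters are shown so that the genes that fell can be read beside Ezh1, which rose, and capitals mark the letters found, in the order of the transcribed strand. Ezh2 is read from the minus strand of chr6:47595011-47595130 and its E2F letters begin 3 bases after the transcript start. Suz12 is read from the plus strand of chr11:79992866-79992965, with E2F letters 219 bases and CHR letters 203 bases before the start. Eed is read from the minus strand of chr7:89981137-89981196, with CHR letters 197 and 183 bases before the start. Ezh1 is read from the minus strand of chr11:101226464-101226563, the 100 bases before its start, where none of these letters occur.
Ezh2: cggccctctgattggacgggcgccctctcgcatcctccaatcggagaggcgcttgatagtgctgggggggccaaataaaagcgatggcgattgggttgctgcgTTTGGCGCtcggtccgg
Suz12: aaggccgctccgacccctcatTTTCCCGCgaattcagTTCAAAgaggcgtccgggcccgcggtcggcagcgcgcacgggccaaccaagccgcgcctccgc
Eed: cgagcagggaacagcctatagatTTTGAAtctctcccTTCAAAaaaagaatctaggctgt
Ezh1: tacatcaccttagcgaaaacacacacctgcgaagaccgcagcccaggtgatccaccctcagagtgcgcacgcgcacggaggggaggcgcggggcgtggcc
A match in such a window is a description of its letters. Whether any factor binds there was not tested.

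Expression is given as log2 values normalized by RMA, and a change is the irr mean minus the non-irr mean. Probe sets over an intensity of 100 (log2 6.64) on at least 1 array were tested with limma, and a probe set was called at an adjusted p under 0.05 over the 21919 probe sets tested. Across these probe sets the correlation was 0.991 to 0.997 between replicates and 0.912 to 0.923 between the groups. The second principal component (3.68% of the variance) divided the irr arrays, with replicates 1 and 2 on one side and 3 and 4 on the other. The gap between 3′ and 5′ control probe sets was wider on every irr array than on every non-irr array for 3 of 4 control RNAs. It was 0.22 to 0.29 (log2) on non-irr and 0.42 to 0.58 on irr arrays for actin, 0.21 to 0.65 and 0.69 to 1.198 for the transferrin receptor, and 0.43 to 0.68 and 0.97 to 1.13 for pyruvate carboxylase, and the groups overlapped for Gapdh, at -0.13 to -0.03 and -0.09 to -0.03. The part of these wider gaps in the results was not tested.

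At day 7, irr NSCs held less Ezh2, Suz12 and Eed RNA and more Ezh1 RNA, and within PRC1 they held less Cbx2 and more Bmi1 RNA. Cbx7 and Rnf2 were also called higher, each with a limit. The Cbx7 probe set passed the filter only through the irr arrays. For Rnf2 the groups overlapped, and its call ended in 12 alternative settings. All 10 genes had a probe set past the intensity filter, and the brightest one, by its mean over the 8 arrays, stands for the gene. Of the 4 PRC2 genes, 3 fell and 1 rose, with a median log2 change of -0.45. Of the 6 PRC1 genes, 3 were called higher, Cbx7 and Rnf2 among them, 1 was called lower and 2 were not called, and the median was 0.15. Calls were common on these arrays. Of 11372 genes tested, 77.3% were called either way, 40.2% higher and 37.1% lower, with a median change of 0.007, so the 8 calls among 10 members are a share near that of all genes. Changes of at least 2-fold were rarer, at 8.9% of genes higher and 6.17% lower, and 3 members reached that size, namely Ezh1, Ezh2 and Cbx2. The values of the groups did not overlap for 7 of the 10 genes, beside 73.4% of all genes.

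**Figure D1:**
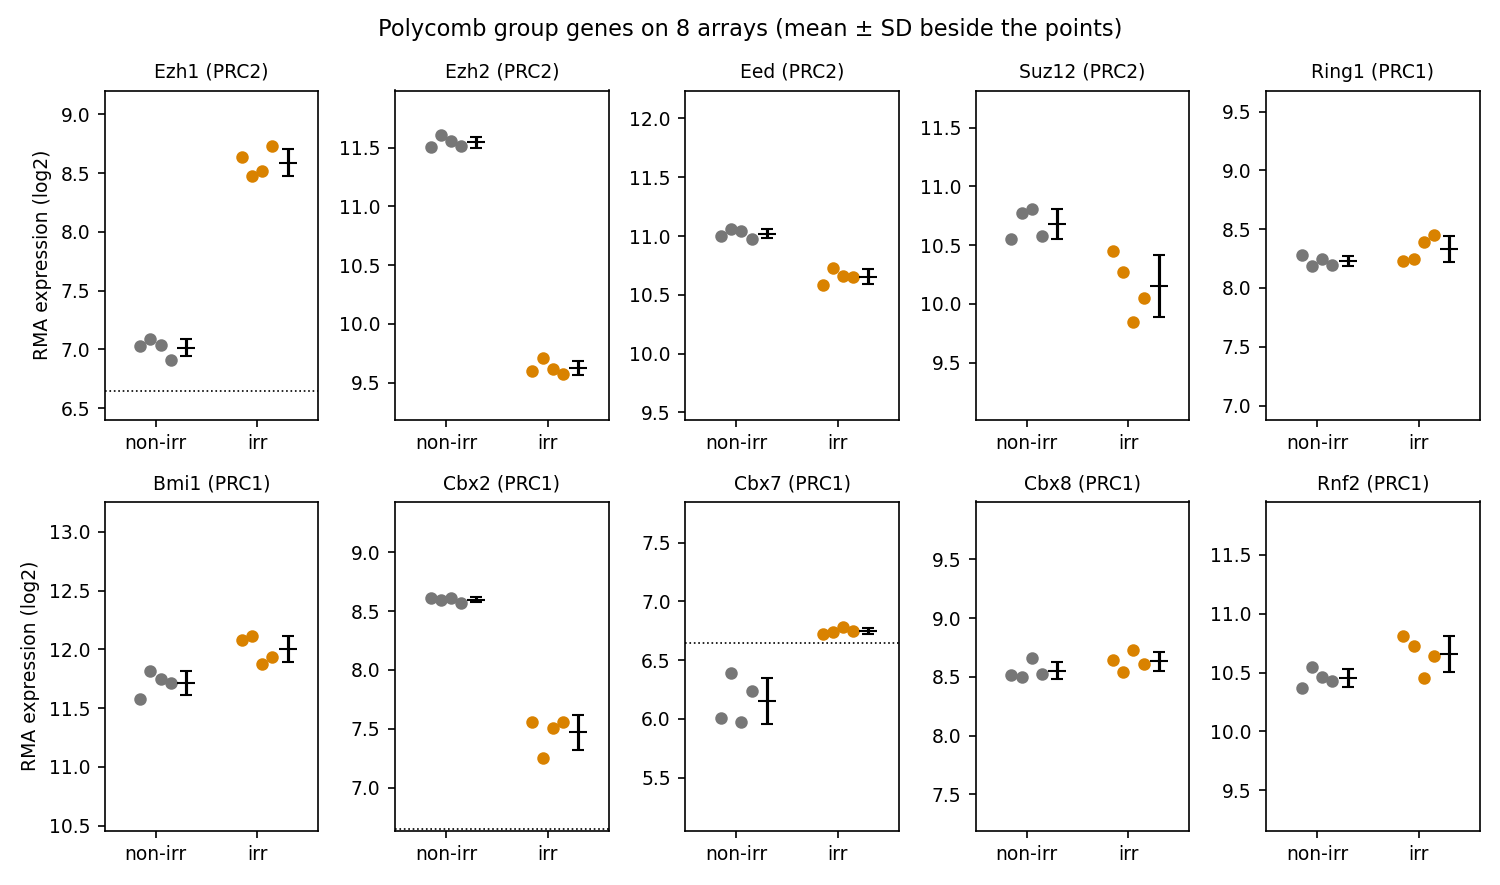
RMA log2 expression of the brightest probe set of each Polycomb gene on the 4 non-irr (grey) and 4 irr (orange) arrays, with the mean ± SD as a bar beside the points and, where it falls in range, the intensity filter as a dotted line. Axes are centred on each gene's own values, so heights compare within a gene only; Ezh2, Ezh1 and Cbx2 show the widest separation, and Cbx8, Ring1 and Rnf2 overlap.

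Ezh2, the catalytic subunit of PRC2 in dividing cells, showed the widest decrease among the members. Its only probe set, 1416544_at, read 11.50, 11.60, 11.56 and 11.51 on non-irr replicates 1 to 4 and 9.60, 9.71, 9.62 and 9.58 on irr replicates 1 to 4. The 4 irr arrays lay close together and far below every non-irr array. Ezh2 fell by 1.92 (log2, with a standard error (SE) of 0.05 and a limma adjusted p = 9.2e-10), so that it was 3.78-fold lower. In bulk RNA, fewer cells that express a gene and less RNA of it in each cell cannot be told apart. Genes of proliferating cells moved with it. All 15 measured genes of a proliferation list were called lower, 14 by 2-fold or more, beside 37.1% and 6.17% of all genes. Tyms, 1 of the 14, passed the filter only through non-irr arrays, so its 2-fold size was not measured. The median of the 15 was -1.88, and their summed intensity was 79155 to 80537 on non-irr and 28217 to 29569 on irr arrays. Tk1, the thymidine kinase of S phase (-2.62), the mitotic kinase gene Aurkb (-2.54) and the cyclin gene Ccna2 (-2.26) had the largest decreases in that list. The part of the change in proliferation in the Ezh2 result was not tested. Among 11371 other genes, those whose values over the 8 arrays were nearest to Ezh2, after subtraction of each gene's mean, were Mad2l1, Bzw2, Kif4, Nasp and Stil, at Euclidean distances of 0.12 to 0.14 log2 units and changes of -1.98 to -1.89.

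Ezh1, the alternative catalytic subunit, moved in the opposite direction. Its brightest probe set, 1449023_a_at, read 7.03, 7.09, 7.04 and 6.91 on the non-irr arrays and 8.63, 8.48, 8.51 and 8.73 on the irr arrays. Every irr array was far above every non-irr array. Ezh1 rose by 1.57 (SE 0.07, limma adjusted p = 2.2e-08), which is 2.97-fold. A second probe set past the filter, 1418290_a_at, read 6.77, 6.55, 6.45 and 5.93 on non-irr and 7.13, 6.43, 6.82 and 6.46 on irr arrays. Here the groups overlapped around the filter, with a change of 0.29 (95% interval -0.16 to 0.73, limma adjusted p = 0.21). Both carry the suffix of probes shared by several transcripts of 1 gene. The plain probe sets 1429630_at and 1429629_at lay below the filter on all 8 arrays and were not tested, with differences of 0.51 and 0.37 and no overlap between the groups. The mean over both probe sets past the filter was 0.93, and the call of Ezh1 rests on 1449023_a_at. The genes nearest to Ezh1 by the same distance were Slc41a2, Ndrg4, Arhgef6, Col3a1 and Scamp1, at 0.16 to 0.21 log2 units and changes of 1.51 to 1.62.

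Eed, which binds the methyl mark and stimulates the enzyme, decreased by less. Its probe set 1448653_at read 11.00, 11.06, 11.05 and 10.98 on non-irr and 10.58, 10.73, 10.66 and 10.65 on irr arrays. Every irr array was below every non-irr array. Eed fell by 0.37 (SE 0.05, limma adjusted p = 5.9e-05), or 1.29-fold. Its other probe set, 1453830_at, stayed below the filter, at 4.96 ± 0.19 and 4.83 ± 0.20 (SD, n = 4 each), and the groups overlapped there.

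Suz12, the scaffold subunit, was read by 6 probe sets, all past the filter. The brightest, 1420021_s_at, read 10.55, 10.77, 10.81 and 10.58 on non-irr and 10.45, 10.27, 9.85 and 10.05 on irr arrays. The groups were separate, but only by the gap between 10.55 and 10.45, and irr replicates 3 and 4 lay lowest. Suz12 fell by 0.52 on this probe set (SE 0.12, limma adjusted p = 0.0033). Of the 6 probe sets, 5 were called lower, at -1.09 to -0.52, and 1420020_at, at -0.21 (95% interval -0.43 to -0.00, limma adjusted p = 0.063), did not pass. The 3 probe sets with the suffix _s_at hold probes that can match more than 1 transcript, and among the plain ones 1452364_at fell by 0.82 and 1449661_at by 0.65. The groups did not overlap on 4 of the 6. The probe set with the largest change, 1420022_s_at, was below the filter on all irr arrays and passed it only through non-irr arrays. Its call adds no support for a decrease, and its size of -1.09 is uncertain.

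**Figure D2:**
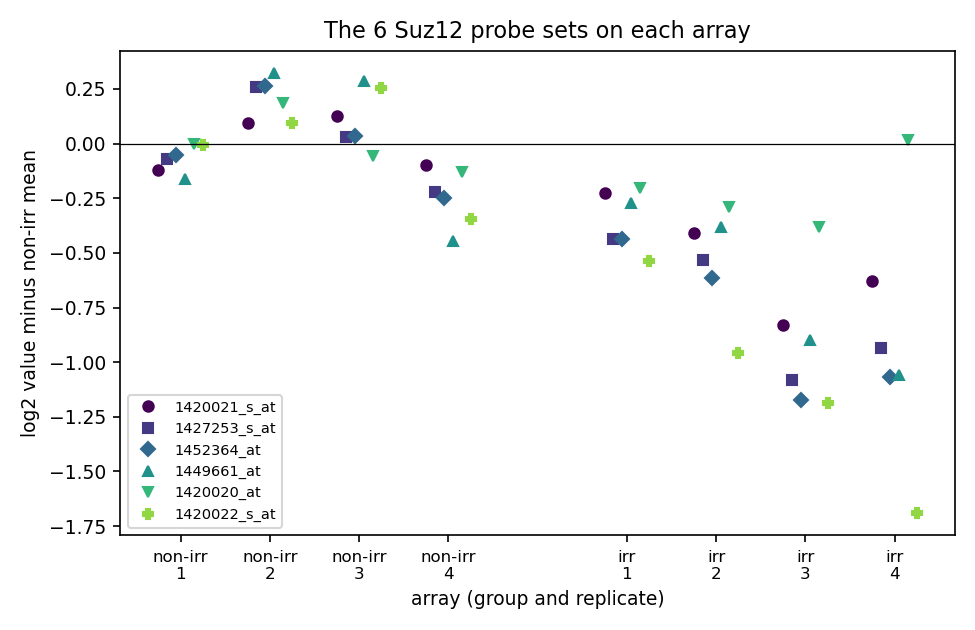
Log2 value of each of the 6 Suz12 probe sets on each array, minus that probe set's non-irr mean (line at 0), with 1 marker shape per probe set. All probe sets but 1420020_at have irr replicates 3 and 4 as their lowest pair of arrays.

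Irr replicates 3 and 4 were the 2 lowest of the 8 arrays on 5 of the 6 Suz12 probe sets, the same pair that the second principal component set apart. Without them the brightest probe set changed by -0.32 (limma adjusted p = 0.018), and without irr replicates 1 and 2 by -0.73 (limma adjusted p = 2.5e-04). The decrease of Suz12 was called either way, with a size that differed between the pairs. Ezh2 read -1.89 and -1.95 and Eed -0.36 and -0.37 in the same settings.

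Among the PRC1 genes, the CBX subunits, which direct the complex to methylated histones, changed unequally. Cbx2 was read by 1434116_at at 8.61, 8.59, 8.61 and 8.57 on non-irr and 7.56, 7.25, 7.51 and 7.56 on irr arrays. All irr arrays were about 1 log2 unit below all non-irr arrays, with irr replicate 2 the lowest. Cbx2 fell by 1.13 (SE 0.07, limma adjusted p = 3.0e-07), 2.19-fold, and a dim second probe set, 1422059_at, was below the filter with a difference of -0.33. Cbx7, whose protein represses the Ink4a/Arf locus in other cells, was read by 1433557_at at 5.97 to 6.39 on the 4 non-irr arrays (6.24 on replicate 4) and at 6.72, 6.74, 6.78 and 6.75 on the irr arrays. The irr values were nearly equal, and all non-irr values lay below the filter. Cbx7 was called higher (limma adjusted p = 1.6e-04). Its probe set passed the filter only through the irr arrays, so this test adds no support for an increase. With the filter intensity in place of the non-irr mean, Cbx7 was at least 1.07-fold higher. The fitted difference of 0.60 (SE 0.09) rests on non-irr values under the filter. The other 2 Cbx7 probe sets were below the filter on every array, with differences of 0.00 and -0.20, so the increase rests on 1 probe set just above the filter. Cbx8, a neighbour of Cbx2 on chromosome 11, read 8.52, 8.50, 8.66 and 8.53 on non-irr and 8.64, 8.54, 8.73 and 8.61 on irr arrays by 1419198_at. The groups overlapped, and the change was 0.08 (95% interval -0.05 to 0.21, limma adjusted p = 0.23).

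The subunits that form the catalytic core of PRC1 changed by little. Bmi1, the PCGF subunit, was read by 1417493_at at 11.58, 11.82, 11.74 and 11.71 on non-irr and 12.08, 12.11, 11.88 and 11.94 on irr arrays, and by 1448733_at at 10.66, 11.03, 10.97 and 10.78 and at 11.30, 11.37, 11.10 and 11.17. On both probe sets every irr array was above every non-irr array. Bmi1 rose by 0.29 (SE 0.07, limma adjusted p = 0.0042) on the brighter and by 0.38 (SE 0.09, limma adjusted p = 0.0039) on the other. Rnf2, the main ubiquitin ligase subunit, read 10.37, 10.55, 10.46 and 10.43 on non-irr and 10.81, 10.73, 10.45 and 10.64 on irr arrays by 1424873_at. Irr replicate 3 lay within the non-irr range. Rnf2 rose by 0.21 (SE 0.08, limma adjusted p = 0.036), and its second probe set past the filter, 1451519_at, changed by 0.09 (95% interval -0.09 to 0.27, limma adjusted p = 0.32). The other 3 Rnf2 probe sets lay below the filter on all 8 arrays and differed the other way, 1448041_at by -0.21 with overlapping groups and 1448043_x_at and 1448042_s_at by -0.22 and -0.24 with none. The call ended when any 1 of non-irr replicates 1, 3 and 4 or irr replicates 1, 2 and 4 was left out, at changes of 0.15 to 0.21, and without irr replicates 1 and 2 together (0.09, limma adjusted p = 0.30). Ring1, the alternative ligase subunit, read 8.28, 8.18, 8.25 and 8.20 on non-irr and 8.23, 8.25, 8.39 and 8.45 on irr arrays. The groups overlapped, with a change of 0.10 (95% interval -0.03 to 0.24, limma adjusted p = 0.14). Without irr replicates 1 and 2 Ring1 was called higher (0.19, limma adjusted p = 0.015).

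Over all probe sets, 18 of the 28 passed the filter, and of these 5 were called higher and 8 lower, beside 38.0% and 37.1% of all probe sets and 75.1% in either direction. At least 2-fold, 1 was higher and 3 were lower, beside 8.47% and 5.98%. For PRC2 this was 1 higher, 7 lower and 2 not passed of 10, and for PRC1 4 higher, 1 lower and 3 not passed of 8. The groups did not overlap on 11 of the 18, against 69.6% of all probe sets. The 10 probe sets below the filter belong to 6 of the genes, at log2 values of 3.69 to 6.33 and differences of -0.33 to 0.51. No member had probe sets called in opposite directions, though only Suz12 and Bmi1 had more than 1 probe set called. The small changes depended on the scale. With arrays centred on 8 reference genes, of which 2 were higher and 4 lower as deposited, the median change of all probe sets moved from -0.0083 to 0.11, Cbx8 (0.20, limma adjusted p = 0.021) and Ring1 (0.23, limma adjusted p = 0.0061) were called higher, and member probe sets split into 7 higher and 7 lower. All genes tested split into 48.3% higher and 28.0% lower on that scale. The widest changes among the reference genes were decreases of Pgk1 (-0.66) and Hprt (-0.38), and the 2 higher ones were Gusb (0.22) and Sdha (0.20). Hprt was below the filter on 3 non-irr and 4 irr arrays, so this scale is itself uncertain.

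**Figure D3:**
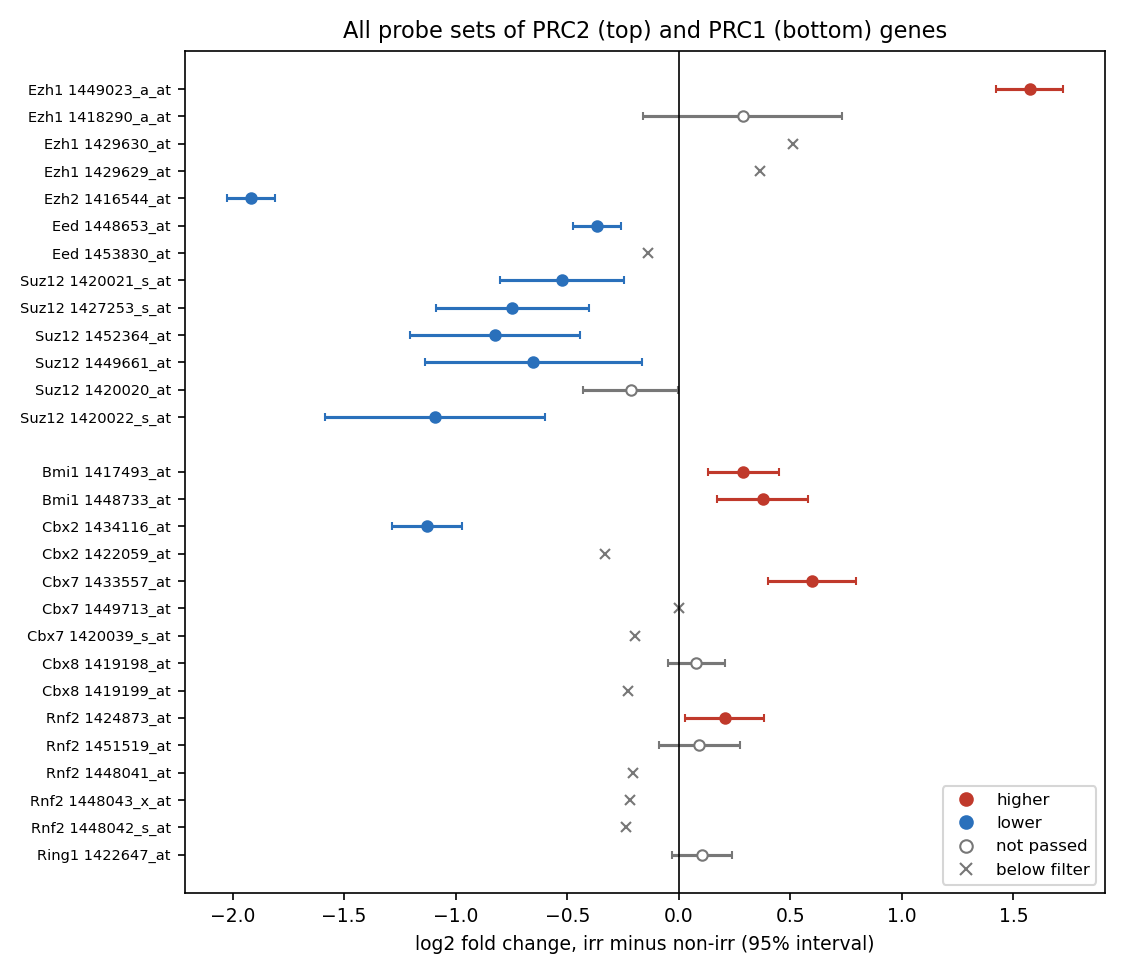
Log2 fold change (irr minus non-irr) of all 28 probe sets, PRC2 genes above and PRC1 genes below, with 95% intervals from limma for the 18 past the filter and crosses for the 10 below it, which were not tested. Red marks probe sets called higher, blue lower, and open circles those that did not pass; the Suz12 probe sets lie at -1.09 to -0.21, and of the Ezh1 ones only 1449023_a_at was called.

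Alternative subunits of one position in a complex were compared by the difference of their log2 values within each array, so that scaling between arrays cancels. The difference of Ezh1 minus Ezh2 was -4.53 ± 0.05 on non-irr and -1.04 ± 0.17 on irr arrays (SD, n = 4 each), a change of 3.49, or 11.2-fold (two-sided exact permutation test over arrays, p = 0.029, the smallest that 4 arrays against 4 allow). The p was 0.038 after adjustment over 4 pairs and 0.057 over the 2 pairs measured in both groups, which leaves out those with Cbx7. Since different probe sets bind with different strength, only the change is interpretable, not which RNA was more abundant. With the mean of both Ezh1 probe sets the change was 2.85. For Cbx7, which lay below the filter on every non-irr array, only a lower bound of the change can be given, with no test. With the filter in place of its non-irr values, Cbx7 minus Cbx2 changed by at least 1.23, whereas for Cbx7 minus Cbx8 the bound was 0.024. Ring1 minus Rnf2 changed by -0.10 (exact permutation test, p = 0.49), with overlapping groups. When 1 irr array was left out the change of Ezh1 minus Ezh2 was 3.42 to 3.56 and its p adjusted over 4 pairs became 0.057 (exact permutation test). Its groups still did not overlap there, and the adjusted p depends also on the other pairs, those with Cbx7 among them.

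**Figure D4:**
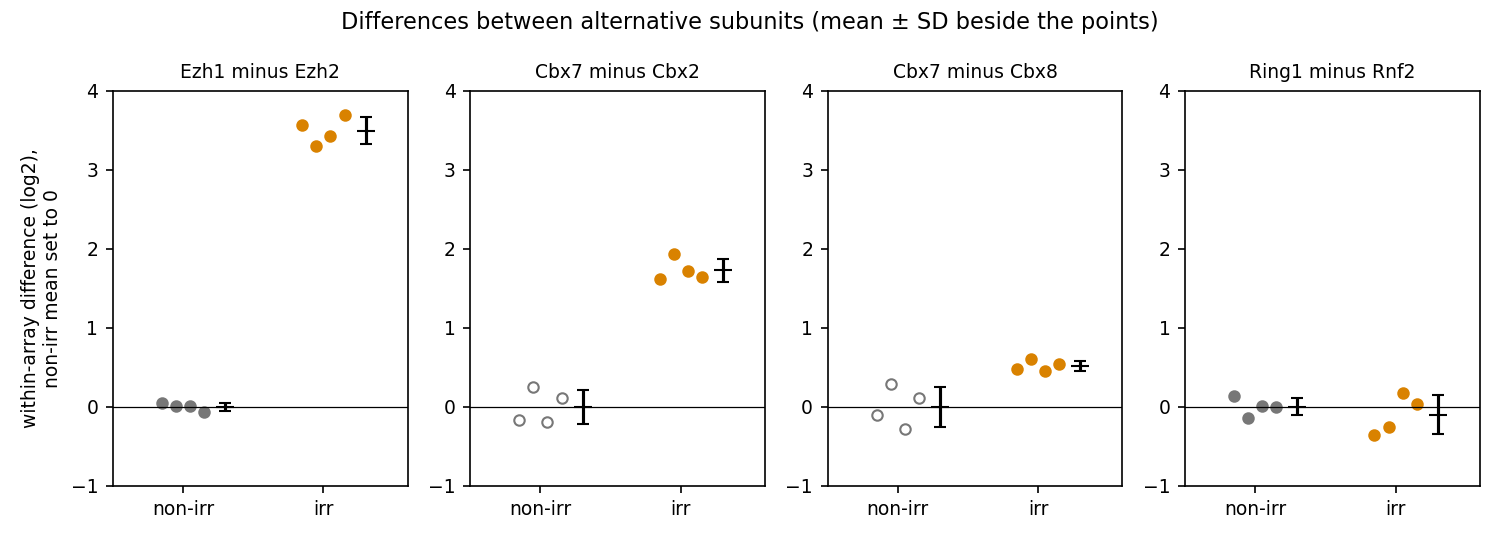
Within-array difference of log2 values between alternative subunits on each array, with the non-irr mean set to 0 in each panel and the mean ± SD beside the points. Open circles are arrays on which 1 gene of the pair was below the filter, as Cbx7 was on all non-irr arrays, so that in the Cbx7 panels only changes of at least 1.23 (against Cbx2) and 0.024 (against Cbx8) are measured; Ezh1 minus Ezh2 changed by 3.49, and the groups of Ring1 minus Rnf2 overlap.

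Other genes of the Polycomb system changed in both directions. Of 42 measured genes in 4 related lists, 14 were higher, 19 lower and 9 not called (median -0.09), beside 40.2% and 37.1% of all genes. On the scale of the reference genes these counts were 15 and 11. By at least 2-fold, only Phc3 was higher and only Pcgf5 lower. Of 7 PRC2 partners, 1 rose and 4 fell, and on the reference scale 2 and 1. Aebp2, a cofactor that stimulates PRC2, rose by 0.68 (limma adjusted p = 9.6e-07) on its brightest probe set, and its other 3 past the filter were called the same way. Mtf2, which recruits PRC2 to CpG-rich DNA, fell by 0.48, Rbbp7 by 0.28 and Rbbp4, a histone-binding subunit like it, by 0.21. Mtf2 and Rbbp4 each had another probe set called in the opposite direction, with changes of -0.48 to 0.43 and -1.05 to 0.37 over the probe sets past the filter. Jarid2, a cofactor of PRC2 in embryonic cells, changed by -0.01 (limma adjusted p = 0.89).

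Of 16 measured further PRC1 subunits, 4 rose and 9 fell, beside 40.2% of all genes called higher and 37.1% lower. On the reference scale 4 of these subunits rose and 6 fell. The polyhomeotic gene Phc3 rose by 1.04, Scmh1 by 0.77, the CBX gene Cbx6 by 0.72 and Mga, a subunit of a variant PRC1, by 0.64. Of 3 Mga probe sets past the filter only 1 was called, with changes of -0.15 to 0.64. Pcgf5 fell by 1.06 and Pcgf6 by 0.80, both PCGF genes of variant PRC1 complexes, L3mbtl2 by 0.66 and Phc1 and Kdm2b, which carries variant PRC1 to CpG islands, each by 0.53. Members of 1 family moved apart, as Phc3 rose while Phc1 fell. Pcgf2, the closest relative of Bmi1, stayed below the filter, at 6.12 ± 0.16 on non-irr and 6.20 ± 0.07 on irr arrays (SD, n = 4 each). Among 8 measured enzymes and cofactors that remove Polycomb marks, 4 rose and 1 fell, beside the same shares of all genes. The H3K27 demethylase genes Kdm6b (0.69) and Kdm6a (0.53) and the H2A deubiquitinase gene Mysm1 (0.46) were higher, and Asxl1, the partner of a deubiquitinase, was lower (-0.53). Of 2 Kdm6a probe sets past the filter 1 was called, and the other read 0.08. Of 11 trithorax group genes, whose proteins counteract Polycomb, 5 rose and 5 fell, again beside 40.2% and 37.1% of all genes. On the reference scale 5 rose and 3 fell. Of the H3K4 methyltransferase genes in this list, Kmt2c (0.91), Kmt2d (0.87), Kmt2a (0.83), Setd1b (0.60) and Kmt2b (0.13) rose, while Setd1a read -0.13 (limma adjusted p = 0.061) and did not pass, with no overlap between the groups. The genes that fell encode other subunits of such complexes, and were Dpy30 (-0.81), Wdr5 (-0.77), Ash2l (-0.72), Men1 (-0.24) and Rbbp5 (-0.20). A second Kmt2d probe set past the filter read -0.20 and was not called. Of 4 Kmt2c probe sets past the filter 3 were called, with changes of 0.03 to 0.91 over all 4.

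**Figure D5:**
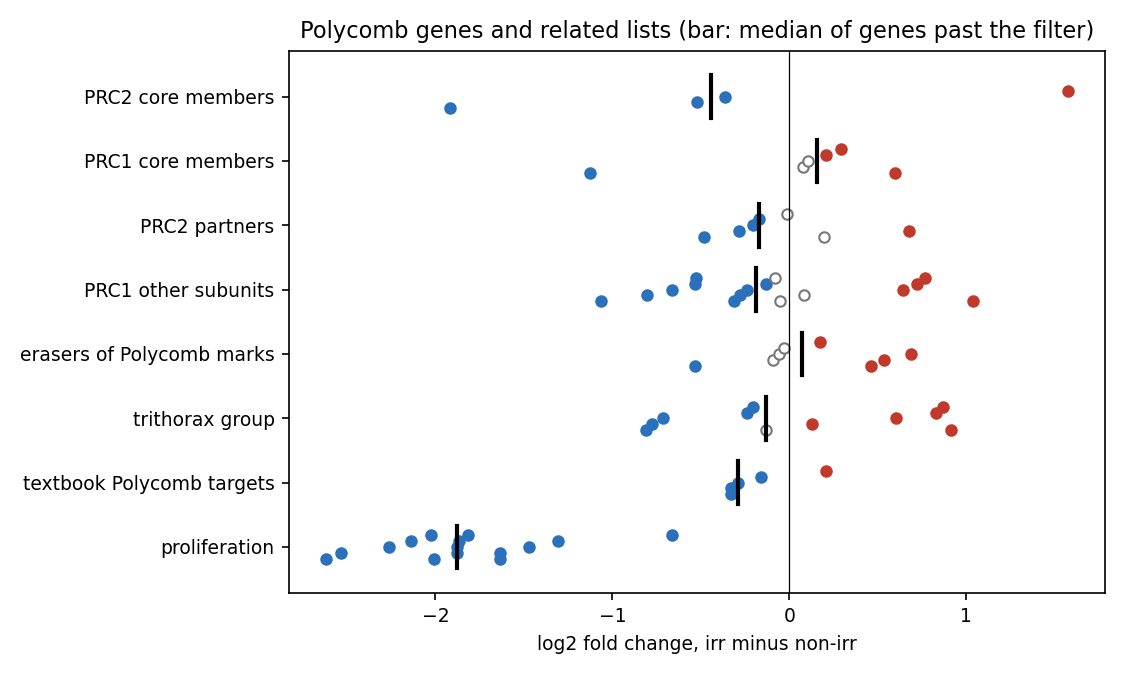
Log2 fold change (irr minus non-irr) of each measured gene of the 2 Polycomb complexes, 4 related lists, textbook targets and proliferation genes, with red for called higher, blue for called lower and open circles for not passed; the bar is the list's median and vertical offsets only separate points. The proliferation genes are all called lower (median -1.88), Tyms with irr values below the filter, whereas the Polycomb and trithorax lists have genes on both sides of 0.

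Of 17 textbook targets of Polycomb silencing, 5 were measured past the filter and 10 stayed below it. Cdkn2a and Cdkn2b, which encode the Ink4 inhibitors and Arf, were below the filter on all 8 arrays, at 4.75 ± 0.06 and 4.68 ± 0.13 for Cdkn2a and 5.50 ± 0.03 and 5.54 ± 0.13 for Cdkn2b (non-irr and irr, SD, n = 4 each). Of the 5 measured, 1 rose and 4 fell, all by under 2-fold, beside 40.2% of all genes called higher and 37.1% lower. Cdkn1c fell by 0.33, Nkx2-2 by 0.33, Nkx2-1 by 0.29 and Foxa2 by 0.16, and Pax7 rose by 0.21. With the reference scale 2 of the 4 decreases were called. Nkx2-1 and Nkx2-2 lay at the filter, so their sizes are uncertain, and Nkx2-2 passed it only through non-irr arrays.

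Markers of cell types were read in the same samples, where 40.2% of all genes were called higher and 37.1% lower. Of 11 measured NSC markers, 4 were higher, 3 lower and 4 not called, with summed intensities of 55101 to 57274 on non-irr and 60556 to 64299 on irr arrays. Of 7 measured astrocyte markers, 6 were called higher and 1, Gfap, lower. Among the 6, Aqp4 passed the filter only through the irr arrays. With the filter intensity in place of its non-irr mean, Aqp4 was at least 26.1-fold higher. Gfap changed by -0.18 (limma adjusted p = 0.019) and was below the filter on 3 irr arrays and 1 non-irr array. The groups overlapped, so the call does not establish a decrease and its size is uncertain. By quantitative PCR and immunoblot, the authors report that GFAP rose in irradiated NSCs. The summed intensity of the 8 astrocyte genes with a probe set went from 1897 to 2081 on non-irr up to 20663 to 23449 on irr arrays. Apoe had the highest irr mean of these genes (13.94), so the sum weighs this gene most. Of 8 mesenchymal markers 5 were measured, with 4 called higher and 1 lower, while Col1a1 and Col1a2 stayed below the filter. Among the 4, Lum and Dcn passed the filter only through the irr arrays, so their calls add no support for an increase. With the filter in place of their non-irr means they were at least 2.98-fold and 1.06-fold higher. Neuronal markers were called higher in 1 and lower in 4 of 6 measured, and none of 4 measured oligodendrocyte markers was called. The neuronal marker called higher, Syt1, also passed the filter only through the irr arrays. Only 2 of 8 microglial and 1 of 6 endothelial markers were measured, and the pluripotency genes Pou5f1 and Nanog were below the filter on all arrays. The part of the astrocyte and mesenchymal changes in the Polycomb results was not tested.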

How the data were processed

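The authors hybridized RNA of 4 non-irr and 4 irr cultures to Affymetrix mouse arrays, computed intensities with GCOS and normalized them with RMA. Their RMA log2 values were used as deposited. No version of GCOS or RMA is given in the sources used here. RMA equalizes the distribution of all arrays, so a change common to all genes cannot be seen. Array medians were 6.22 to 6.24. Probe sets were named from the platform annotation (34958 with 1 symbol, 932 with several, 9211 with none), control probe sets were left out and the authors' detection calls were not used. Differences were tested with limma 3.58.1 in R 4.3.3, two-sided, with Benjamini-Hochberg adjustment, and pairs of subunits by exact permutation of arrays. With 4 arrays per group, the number of arrays limits the precision. All members were named, and of other lists the genes with the largest called changes. Members and lists were chosen with earlier results of these data known. Alternatives covered the filter, the scale, the model, a fold threshold, the probe set that stands for a gene and single arrays left out, and 2 alternatives for pairs of subunits were added after the data were seen. The procedure was tested on simulated data. Bmi1 was not paired with Pcgf2, which was below the filter, and protein sequences were not used here. Sequences and windows are from RefSeq. Figures were drawn with matplotlib 3.10.9.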

Additional observations from a re-analysis of the deposited data

Results flagged for a closer look

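In each group of 4 arrays the highest and the lowest value of every member probe set past the filter were compared with the nearest other value by Dixon's ratio. Of 36 groups, 2 held an array past the critical ratio for 4 values, where chance gives about 5%. For Cbx2 (1434116_at), irr replicate 2 was the lowest irr array at 7.25, with the nearest at 7.51 (ratio 0.838). Without that array Cbx2 changed by -1.06. For Cbx8 (1419198_at), non-irr replicate 3 was the highest non-irr array at 8.66, with the nearest at 8.53 (ratio 0.837). Without it Cbx8 changed by 0.12 and did not pass the test (limma adjusted p = 0.083).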

How the results depend on the processing

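Ezh1, Ezh2, Eed, Suz12, Bmi1, Cbx2 and Rnf2 kept their direction in every setting that measured them. Several settings use the same values of the same probe set, so there the direction could not change. Cbx7 kept its direction too, but this rests on non-irr values below the filter and says nothing of stability. At an intensity over 200 Cbx7 was not measured. With arrays centred on reference genes, 5 PRC1 genes were higher and 11 genes of the 4 related lists lower. At a minimum of 2-fold, 1 PRC2 gene was lower, 0 PRC1 genes were higher by limma, the related lists held 1 higher and 1 lower gene, and 1 member probe set was higher and 3 lower. Among these 3 is Suz12 1420022_s_at, whose irr values lay below the filter. In limma's test against a 1.2-fold change, 1 PRC2 gene was lower, 1 PRC1 gene higher, 9 related genes lower, and 2 member probe sets were higher and 5 lower. With plain identifiers, 0 PRC2 genes were higher by limma, since no plain Ezh1 probe set passed the filter. Of all genes 55.5% were called without a filter, 48.0% against 1.2-fold and 15.1% at 2-fold. The call of Rnf2 ended in 12 settings, among them no filter (limma adjusted p = 0.059), arrays centred on their median (0.074) and the mean of its probe sets (0.080). Ring1 minus Rnf2 changed by -0.31 without irr replicates 3 and 4 and by 0.10 without irr replicates 1 and 2. The cause was not tested. With single arrays left out, it ranged from -0.19 to -0.02, and Ezh1 minus Ezh2 from 3.42 to 3.56. For Cbx7 minus Cbx2 (1.66 to 1.81) and Cbx7 minus Cbx8 (0.42 to 0.61) these ranges rest on non-irr values below the filter and say nothing of stability, since with the filter in their place, a setting chosen after seeing the data, the changes were 1.23 and 0.024. Adjusted over the 2 pairs measured in both groups, also chosen after seeing the data, the change of 3.49 for Ezh1 minus Ezh2 had p = 0.057 (exact permutation test).

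The labels do not say whether equal replicate numbers pair the samples. Deviations of equal numbers correlated at 0.04, 0.38, -0.21 and 0.51, which does not settle it. A replicate block changed no call of a member gene (Rnf2 0.21, limma adjusted p = 0.046) and gave 6 higher and 8 lower member probe sets and 13 higher and 17 lower related genes. An exact test of paired differences between alternative subunits cannot go below p = 0.125 with 4 pairs. Values near the filter, as for Cbx7 and the second Ezh1 probe set, are limited by signal over background.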
